A study of Mus musculus with 6 samples.

Results

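Calcium pumps and calcium buffers of the sarcoplasmic reticulum, the internal calcium store of muscle fibres, were examined in mouse gastrocnemius as 10 genes chosen by name. They are Atp2a1, Atp2a2, Casq1, Casq2, Pvalb, Sln, Mrln, Srl, Hrc and Pln, and all 10 were found among the 57010 genes of the expression table. RNA sequencing had been done on 6 muscle samples from NOD/SCID/IL2Rγ-null (NSG) mice, a strain without mature lymphocytes. Every mouse carried a subcutaneous tumour on the left flank grown from MDA-MB-231 cells, a human triple-negative breast cancer line, with knockdown (KD) of Rab27a, a GTPase of vesicle secretion. For radiotherapy (n = 3), only the tumour was given X-rays, 10 Gy in a single dose once it had reached about 800 mm3, and the gastrocnemius of the opposite leg was taken 3 days later. The control group (n = 3) is labelled control with no further detail. The knockdown was in the tumour cells of both groups, and no sample came from a mouse whose tumour lacked it. The labels state neither sex nor age, and they do not say whether each sample is a different animal, so the p-values cover only the spread among these samples, which may be technical.

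Contraction begins when calcium leaves the sarcoplasmic reticulum, and relaxation follows when SERCA pumps drive it back at the cost of ATP. Inside the store, calsequestrin and other acidic proteins hold calcium at low affinity, and in the cytosol of fast fibres parvalbumin binds it before the pumps remove it. Small membrane peptides, among them sarcolipin, myoregulin and phospholamban, bind the pumps and lower their activity. The gastrocnemius is mainly a fast muscle, in which SERCA1 and calsequestrin 1 are the usual isoforms, while SERCA2, calsequestrin 2 and phospholamban are typical of slow fibres and heart.

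The coding sequences of the 3 inhibitory peptides are printed because Sln, among them, gave the log2 fold change farthest from 0 of the 10 genes, and because they show how short these pump regulators are. They come from GENCODE M21 (GRCm38), 5′ to 3′, with the start and stop codons in capitals.
Sln, sarcolipin, 31 codons: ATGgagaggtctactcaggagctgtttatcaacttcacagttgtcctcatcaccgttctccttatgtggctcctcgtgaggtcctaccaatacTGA
Mrln, myoregulin, 46 codons: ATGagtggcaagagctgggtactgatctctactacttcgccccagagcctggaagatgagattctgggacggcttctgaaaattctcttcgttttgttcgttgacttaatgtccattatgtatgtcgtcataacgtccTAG
Pln, phospholamban, 52 codons: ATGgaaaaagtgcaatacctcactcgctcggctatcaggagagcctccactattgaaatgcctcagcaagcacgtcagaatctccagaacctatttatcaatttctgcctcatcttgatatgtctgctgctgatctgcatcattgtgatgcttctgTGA

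Promoter windows of Atp2a1 and Casq1, a pump and a buffer of fast fibres, are shown because both had lower group means after radiotherapy, with each E-box in capitals, the letters CANNTG that myogenic transcription factors can bind. The windows run from 250 bases before to 50 bases after the start site and are RefSeq sequences of GRCm38.p6, which is not the build named for the expression table.
Atp2a1, chr7:126463024-126463323, minus strand: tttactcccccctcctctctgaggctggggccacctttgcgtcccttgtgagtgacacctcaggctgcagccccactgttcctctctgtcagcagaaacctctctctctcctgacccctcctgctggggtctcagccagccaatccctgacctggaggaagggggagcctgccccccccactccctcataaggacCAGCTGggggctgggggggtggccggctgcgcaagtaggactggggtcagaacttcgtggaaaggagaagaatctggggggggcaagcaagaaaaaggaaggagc
Casq1, chr1:172219846-172220145, minus strand: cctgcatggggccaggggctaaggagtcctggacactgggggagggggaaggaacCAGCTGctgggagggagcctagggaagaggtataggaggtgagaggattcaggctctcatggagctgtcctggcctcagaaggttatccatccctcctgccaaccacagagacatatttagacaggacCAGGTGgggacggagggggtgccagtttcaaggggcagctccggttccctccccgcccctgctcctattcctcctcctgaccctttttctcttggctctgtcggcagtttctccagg
The Atp2a1 window holds a single E-box, CAGCTG, and the Casq1 window holds the same letters and a second E-box, CAGGTG. The 7 members with a RefSeq window have 8 windows. Counted by gene, 4 of the 7 hold CAGCTG (Atp2a1, Casq1, Hrc and Pln), and counted by window, 16.3% of all 32851 windows do. The looser CANNTG is in a window of each of these 7 members and in 72.3% of all windows. Hrc, Pvalb and Mrln also had lower means after radiotherapy and are not shown. Hrc holds CAGCTG, and no window of Pvalb or Mrln does. Both strands were searched, and CAGCTG is a case of CANNTG, so the counts overlap. A match of letters is a description and not a measured binding site.

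Expression was deposited as TPM (a unit of transcript abundance), a length-corrected share of all transcripts that sums to 1000000 in every library, so sequencing depth was unknown and counting intervals could not be given. The libraries carried the transcripts of skeletal muscle. Summed TPM of 6 fibre genes (Acta1, Ckm, Ttn, Neb, Mb, Des) was 4.21 to 4.70% of the total in the controls and 3.40, 1.71 and 3.42% in radiotherapy 1, 2 and 3. Radiotherapy 2 stood apart in that sum. Acta1 and Ckm supplied most of it, with control means of 21381 and 18416 TPM out of 44984 TPM. Both were lower in all radiotherapy libraries than in any control. Neb, Des, Ttn and Mb overlapped between the groups, with log2 fold changes of −0.37, −0.28, 0.12 and 0.12 (radiotherapy minus control). The mitochondrial genome took 10.4, 13.7 and 8.93% of TPM in controls 1 to 3 and 18.9, 22.5 and 15.1% in the radiotherapy libraries, so the groups did not overlap, with radiotherapy 2 the highest. In a table of shares, a larger part for some genes leaves a smaller part for all others together. What that meant for single genes was not tested. Slow fibre genes were lowest in control 3, at 0.180% of TPM against 0.205 to 0.333% elsewhere. Summed smooth muscle markers, 6 genes, were at 82.5 to 140.3 TPM in control and 122 to 147 TPM in radiotherapy. The 5 leukocyte markers were highest in control 1, at 58.9 TPM against 6.92 to 38.8 TPM in the others. The 5 red blood cell markers summed to 3352 to 7203 TPM in control and 929.8 to 1618 TPM in radiotherapy, without overlap, and each of the 5 genes was lower in all radiotherapy libraries than in any control. The 5 neuron and Schwann cell markers summed to 32.6 to 109 TPM in control and 31.8, 184 and 592 TPM in radiotherapy 1, 2 and 3. The part of these differences in the results on the calcium genes was not tested.

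Levels of the 10 genes covered more than 3 orders of magnitude, with the fast fibre isoforms far above the slow ones. Parvalbumin was the most abundant, with a mean over the 6 libraries of 8322 TPM, followed by the fast pump gene Atp2a1 at 6564 TPM, whose range overlapped that of Pvalb. Casq1 (533 TPM) came next, its values all below those of Atp2a1, and it overlapped Mrln (395 TPM), which overlapped Hrc (356 TPM). Hrc lay above Srl (212 TPM) in 6 of 6 libraries without overlap. Sln (37.9 TPM) and Atp2a2 (32.9 TPM) overlapped, and Sln was above Atp2a2 in 1 library of 6, radiotherapy 2. Casq2 (9.15 TPM) lay wholly below Atp2a2, and Pln (1.94 TPM) wholly below Casq2. Atp2a1 mRNA was 151 to 471 times as abundant as Atp2a2 mRNA in each library, and Casq1 mRNA 23.5 to 90.1 times as abundant as Casq2 mRNA.

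**Figure D1:**
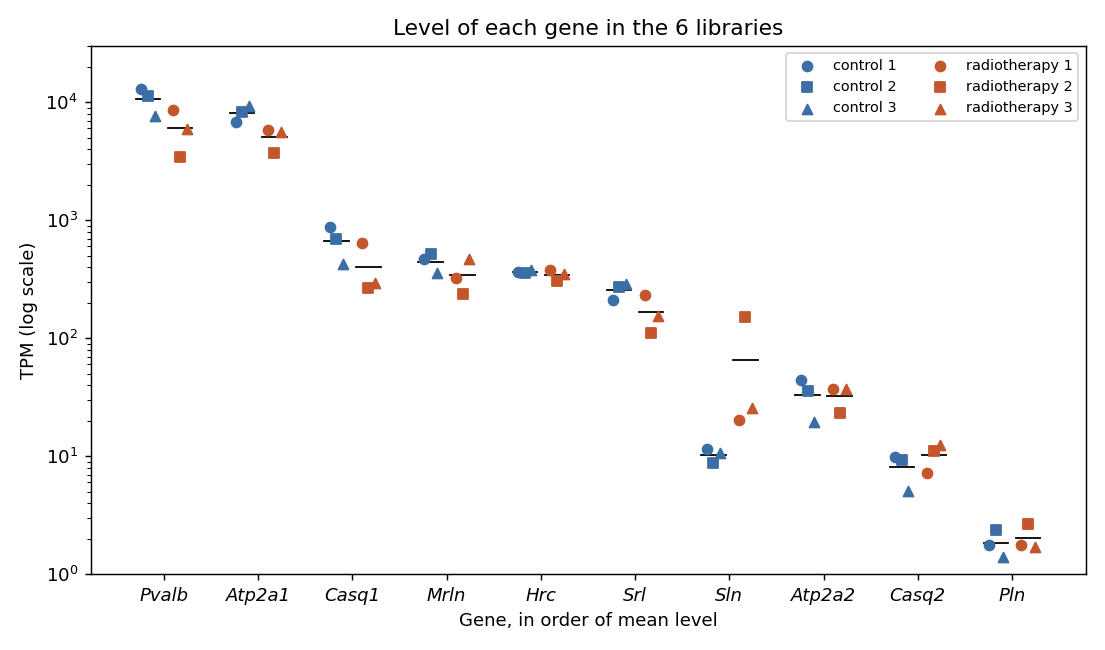
TPM on a log axis of each of the 10 genes in the 3 control (blue) and 3 radiotherapy (orange) libraries, with a horizontal line at each group mean. Points of the groups are apart for Atp2a1, with radiotherapy lower, and for Sln, with radiotherapy higher, where radiotherapy 2 reaches 151 TPM.

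The comparison of radiotherapy with control asked whether the calcium store genes of a muscle outside the irradiated tumour differed between the groups. None of the 10 passed limma at an adjusted p of 0.05 over the 11375 genes tested, and neither did any other gene (0% called, against 435 genes, 3.82%, at an unadjusted p under 0.05). Genes were tested if they reached 1 TPM in at least 3 libraries, which all 10 did. At an unadjusted p under 0.05 there were 3 members with lower values after radiotherapy (Atp2a1, Pvalb, Srl) and 1 with higher values (Sln), where 2.86% of all genes were lower and 0.967% higher by that rule. The 3 radiotherapy values lay wholly apart from the 3 control values in 2 of the 10, Atp2a1 and Sln, while 9.24% of all genes tested did so, 7.54% with radiotherapy lower and 1.7% with radiotherapy higher. Log2 fold changes, given as radiotherapy minus control on the log2(TPM + 1) scale, were negative for 6 members and positive for 4, with a median of −0.25. Over all genes tested the median was −0.11 and 67.9% were negative. In bulk muscle, fewer fibres of a type and less RNA per fibre cannot be told apart.

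**Figure D2:**
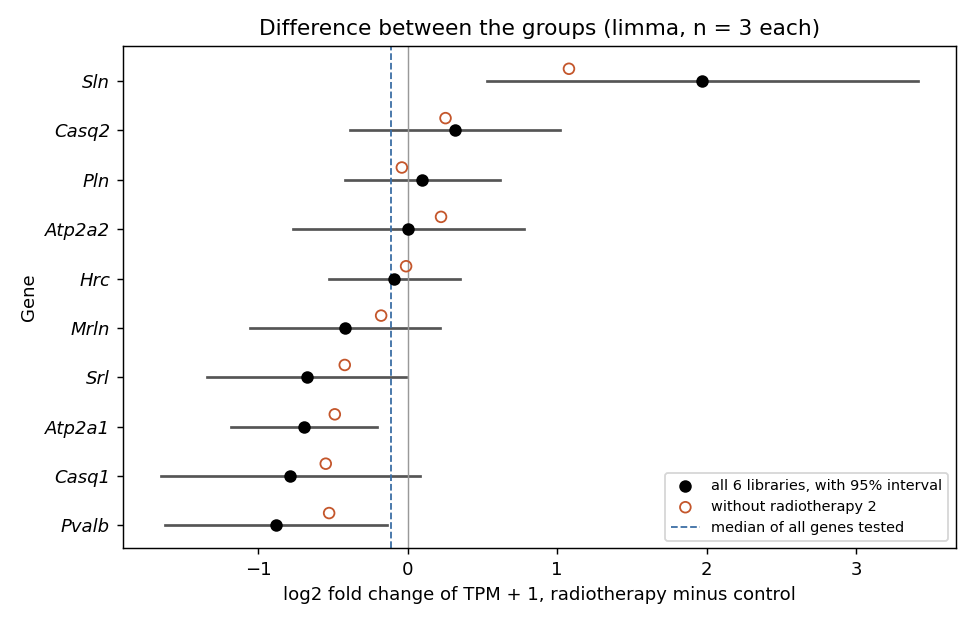
Log2 fold change of TPM + 1, radiotherapy minus control, for the 10 genes with 95% limma intervals (black, n = 3 each), the same without radiotherapy 2 (open circles), and the median of all genes tested (dashed line). Sln is the only gene above 1, and Pvalb, Casq1, Atp2a1 and Srl lie between −0.88 and −0.68. Scaling to the summed fibre genes, not drawn, turns Atp2a1 and Srl to 0.04 and 0.05, with the median of all genes then at 0.49.

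Values in each group are given for replicates 1, 2 and 3 in that order. Of the pumps, Atp2a1, which encodes SERCA1 of fast fibres, measured 6778, 8201 and 9253 TPM in the control libraries against 5843, 3722 and 5588 TPM in the radiotherapy libraries. Every radiotherapy value was below every control value, with radiotherapy 2 the lowest. The means were 8077 ± 1242 and 5051 ± 1158 TPM (SD, n = 3 each), a 1.60-fold lower level. The log2 fold change was −0.69 (SE 0.22, 95% interval −1.18 to −0.21), and it did not pass (limma adjusted p = 0.977). Scaling to the summed fibre genes turned it to 0.04, with the median of all genes then at 0.49. That sum, mostly of Acta1 and Ckm, was itself lower in the radiotherapy libraries. The slow and cardiac pump gene Atp2a2, SERCA2, measured 44.5, 35.9 and 19.6 TPM in the control libraries against 37.1, 23.1 and 37.0 TPM in the radiotherapy libraries. The groups overlapped over most of their range, with a log2 fold change of 0.0040 (SE 0.34, 95% interval −0.77 to 0.78; limma adjusted p = 0.999). That interval includes the estimate for Atp2a1. The lowest Atp2a2 value was in control 3, the library with the fewest slow fibre transcripts, and without control 3 its log2 fold change was −0.33. Scaled to the summed fibre genes it was 0.71. Gene-level values do not separate the splice forms of either pump.

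Among the peptides that inhibit the pumps, sarcolipin gave the widest difference. Sln measured 11.6, 8.71 and 10.6 TPM in the control libraries against 20.2, 151 and 25.5 TPM in the radiotherapy libraries. All 3 radiotherapy values lay above the highest control, and radiotherapy 2 was far above the other radiotherapy libraries. The log2 fold change was 1.97 (SE 0.64, 95% interval 0.53 to 3.41), and it did not pass over all genes (limma adjusted p = 0.977). Without radiotherapy 2 it was 1.08, and it was positive under all 16 alternatives, from 1.08 to 2.67. Since all 3 radiotherapy values lay above all controls, alternatives that keep the TPM scaling could not change its sign. Sln is also a gene of atrial muscle. The atrial markers Nppa and Myl7 were near the floor, listed at 0 in the 3 controls and in radiotherapy 1. They were at 0.31 and 0.11 TPM in radiotherapy 2 and at 0.14 and 0 TPM in radiotherapy 3. All 6 heart markers listed summed to 15.8 TPM in radiotherapy 2 and to 9.29 to 17.0 TPM in control. In radiotherapy 2, Tnnt2, Tnni3 and Ryr2 lay within the control range and Myh6, at 8.51 TPM, lay above it. The part of heart transcripts in the Sln values was not tested. Myoregulin, the main inhibitory peptide gene of fast muscle by level here, measured 466, 514 and 360.0 TPM in the control libraries against 327, 237 and 467 TPM in the radiotherapy libraries. The Mrln groups overlapped, since radiotherapy 3 was as high as control 1, and the log2 fold change was −0.42 (SE 0.28, limma adjusted p = 0.977), which was −0.18 without radiotherapy 2 and −0.66 without radiotherapy 3, and which scaling to the summed fibre genes turned to 0.31. Pln, phospholamban, stayed between 1.39 and 2.64 TPM in all 6 libraries (log2 fold change 0.10, SE 0.23, limma adjusted p = 0.985). Scaled to the summed fibre genes its log2 fold change was 0.61, with the median of all genes then at 0.49. Sln made up 1.66 to 2.85% of the summed TPM of the 3 peptides in the controls, 5.80% and 5.17% in radiotherapy 1 and 3, and 38.6% in radiotherapy 2.

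Parvalbumin, the calcium buffer of the fast fibre cytosol, measured 12893, 11339.5 and 7610.3 TPM in the control libraries against 8675, 3443 and 5973 TPM in the radiotherapy libraries. Radiotherapy 1 lay above control 3, so the groups overlapped, and radiotherapy 2 was the lowest. The means were 10614 ± 2715 and 6030.1 ± 2616 TPM (SD, n = 3 each), with a log2 fold change of −0.88 (SE 0.33, 95% interval −1.62 to −0.14; limma adjusted p = 0.977). Without radiotherapy 2 the Pvalb value was −0.53, and scaled to the summed fibre genes it was −0.15, with the median of all genes then at 0.49.

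In the lumen of the store, Casq1, the calsequestrin of fast fibres, measured 873, 697 and 424 TPM in the control libraries against 645, 264 and 293 TPM in the radiotherapy libraries. Radiotherapy 1 reached the range of the controls, while radiotherapy 2 and 3 lay below all of them. The log2 fold change was −0.79 (SE 0.38, 95% interval −1.65 to 0.08, limma adjusted p = 0.977), and it was −1.19 without radiotherapy 1. Scaled to the summed fibre genes it was −0.06, with the median of all genes then at 0.49. Casq2, the slow and cardiac calsequestrin, measured 9.76, 9.35 and 5.12 TPM in the control libraries against 7.16, 11.0 and 12.5 TPM in the radiotherapy libraries. Its groups overlapped, and the log2 fold change was 0.32 (SE 0.31, limma adjusted p = 0.977), but 0.057 without control 3 and 0.98 when scaled to the summed fibre genes. In radiotherapy 2 and 3 Casq1 mRNA was 24.0 and 23.5 times as abundant as Casq2 mRNA, against 90.1 times in radiotherapy 1 and 74.6 to 89.4 times in the controls.

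Hrc encodes the histidine-rich calcium-binding protein, another lumenal buffer, and was the steadiest of the 10. It measured 363, 359.7 and 376 TPM in the control libraries against 375, 308 and 352 TPM in the radiotherapy libraries. The coefficient of variation was 2.35% in control and 9.85% in radiotherapy, and the log2 fold change of −0.09 (SE 0.19, 95% interval −0.53 to 0.35; limma adjusted p = 0.984) turned positive under each of the other 4 scalings. Srl, the gene of sarcalumenin, a lumenal glycoprotein that binds calcium and associates with the pump, measured 212, 272 and 286 TPM in the control libraries against 233, 111 and 155 TPM in the radiotherapy libraries. Radiotherapy 1 lay within the control range and the others below it. The log2 fold change was −0.68 (SE 0.29, 95% interval −1.34 to −0.01, limma adjusted p = 0.977) and −0.42 without radiotherapy 2. Scaled to the summed fibre genes it was 0.05, with the median of all genes then at 0.49.

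**Figure D3:**
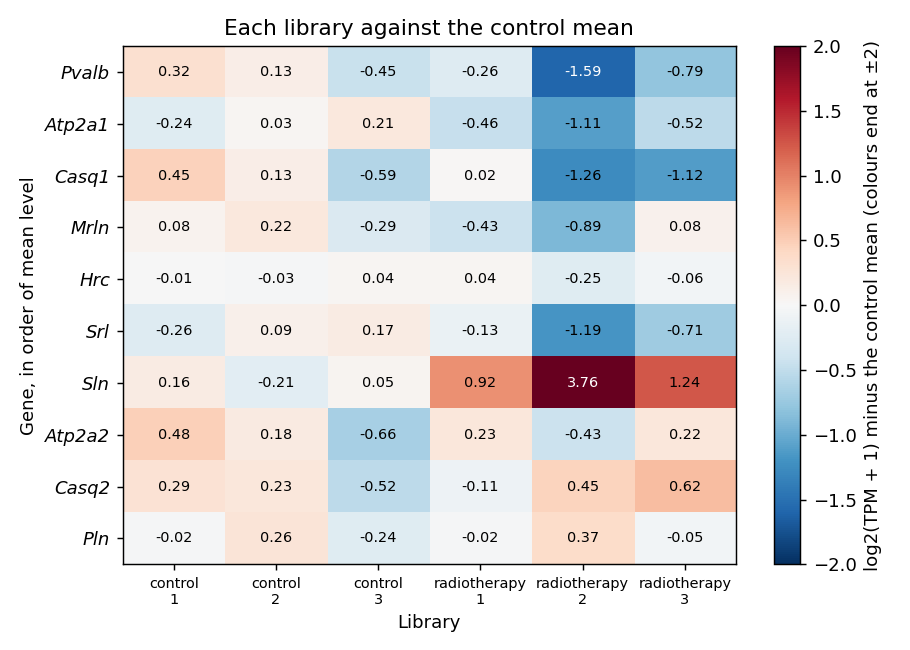
Log2(TPM + 1) of each gene in each library minus the gene's control mean, printed in each cell and coloured from blue (lower) to red (higher). Radiotherapy 2 holds the lowest value of each of the 6 genes of highest mean level, and the Sln row is positive in all 3 radiotherapy libraries, at 0.92, 3.76 and 1.24.

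Radiotherapy 2 and control 3 held most of the extreme values. Radiotherapy 2 held the lowest value of 6 of the 10 genes and the highest of 2, Sln and Pln. Control 3 held the lowest value of 3 genes (Atp2a2, Casq2 and Pln) and the highest of 3 others (Atp2a1, Hrc and Srl). Radiotherapy 1 held neither extreme for any of them. Together the 10 genes made up 18346 to 21653 TPM in the controls and 16164, 8274 and 12905 TPM in radiotherapy 1, 2 and 3. Pvalb and Atp2a1 supply most of that sum.

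Ratios between these genes within a library do not move with the scaling of TPM, and 5 of them were tested by two-sided exact permutation, where groups of 3 allow no p below 0.1. Atp2a1 was 99.4 ± 0.0200% of the summed pump TPM in radiotherapy and 99.6 ± 0.220% in control (SD, n = 3 each; exact p = 0.3, adjusted over the 5 ratios 0.667). The 3 radiotherapy values were close together, and control 3 was highest at 99.8%; the difference of −0.20 percentage points was −0.091 without control 3 and −0.31 without control 1. Casq1 was 98.8 ± 0.109% of both calsequestrins in control and 96.9 ± 1.70% in radiotherapy (n = 3 each; exact p = 0.4, adjusted 0.667), with radiotherapy 1 at 98.9% (a difference of −1.85 percentage points, −2.83 without radiotherapy 1). Summed Sln, Pln and Mrln came to 58.1 ± 15.9 TPM per 1000 TPM of the pumps in control and 83.9 ± 22.8 in radiotherapy (n = 3 each; exact p = 0.3, adjusted 0.667). Radiotherapy 2 and 3, at 104 and 87.9, lay above all controls, and radiotherapy 1, at 59.3, did not. The difference of 25.8 was 15.5 without radiotherapy 2 and 16.8 without control 3. Pvalb per Atp2a1 was 1.37 ± 0.540 in control and 1.16 ± 0.291 in radiotherapy (n = 3 each; exact p = 0.7, adjusted 0.8). Casq1 per 1000 TPM of Atp2a1 was 86.5 ± 41.5 in control and 78.0 ± 29.6 in radiotherapy (n = 3 each; exact p = 0.8, adjusted 0.8). In all 5 ratios the groups overlapped.

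**Figure D4:**
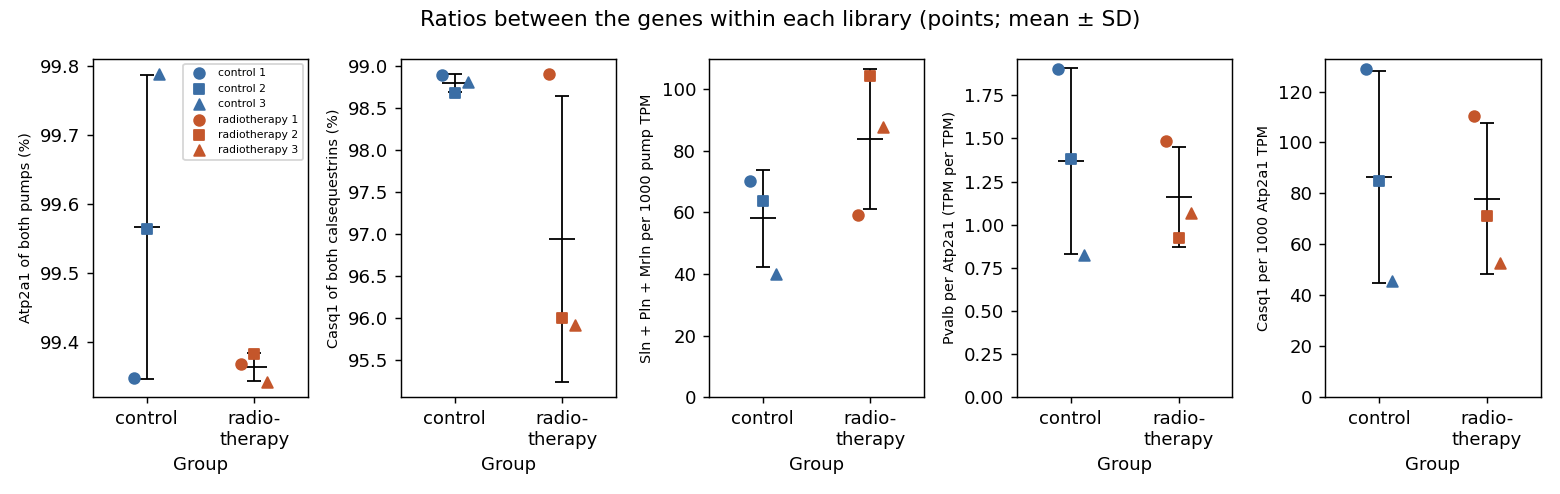
The 5 ratios in each library (points, control blue and radiotherapy orange) with mean ± SD of each group; the percentage axes do not start at 0. The groups overlap in every panel, and radiotherapy 2 and 3 sit near 96% for the calsequestrins while the other 4 libraries lie between 98.7 and 98.9%.

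Other genes of calcium handling were counted from 2 lists. Of 25 further pumps, exchangers, pump peptides, buffers and calcium entry genes, 23 were matched by symbol and 19 tested, and 0 passed limma in either direction (5 lower and 0 higher at an unadjusted p under 0.05). Of the 19, 15 were negative (median −0.40), and in 5 the groups did not overlap, each with radiotherapy lower. Over all genes tested 67.9% were negative, 2.86% were lower at an unadjusted p under 0.05 (limma), and 7.54% were apart with radiotherapy lower. S100a1, a calcium sensor that acts on the pump and the release channel, had the highest level of the list, at 279 ± 15.6 TPM in control and 297 ± 27.2 TPM in radiotherapy (log2 fold change 0.09). Calr, the calcium-binding chaperone calreticulin, gave 0.04, and Saraf, which limits store-operated calcium entry, gave −0.22. The smallest p-values belonged to Sypl2, mitsugumin 29 of the triad, at −1.22 (SE 0.43), and to Slc8a3, a sodium-calcium exchanger, at −0.95 (SE 0.36), both with a limma adjusted p of 0.977.

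Of 17 genes of calcium release and the triad, where the surface membrane meets the store, 16 were tested and 0 passed limma in either direction (6 lower and 0 higher at an unadjusted p under 0.05). Of these, 14 were negative (median −0.43), and in 7 all radiotherapy values were below all control values. Tmem38a, a potassium channel of the store that balances charge during calcium release, measured 623, 685 and 822 TPM in the control libraries against 500.4, 257 and 449.9 TPM in the radiotherapy libraries. Its groups were apart, and the log2 fold change was −0.86 (SE 0.28; adjusted p = 0.977, limma). Cacnb1, the beta subunit of the voltage sensor, gave −0.92 (SE 0.32, limma adjusted p = 0.977). Jsrp1, a junctional protein, gave −0.58 and Trdn, triadin, which anchors calsequestrin to the release channel, gave 0.14 with overlapping groups. All these medians stand beside −0.11 for all genes tested, of which 67.9% were negative. By the same rules 2.86% of all genes were lower at an unadjusted p under 0.05 (limma), and 7.54% were apart with radiotherapy lower.

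Fibre type genes gave the setting of the isoform values. For comparison, 67.9% of all genes tested were negative, with a median of −0.11. At an unadjusted p under 0.05 (limma) 2.86% were lower and 0.967% higher. Groups were apart in 7.54% with radiotherapy lower and in 1.7% with radiotherapy higher. Of 10 fast fibre genes 0 passed limma (5 lower at an unadjusted p under 0.05), 8 were negative and the median was −0.49, with the groups apart in 5, all lower in radiotherapy. Mylpf, a fast myosin light chain, gave −0.49, Actn3, the fast fibre alpha-actinin, −0.50, and the fast troponins Tnnt3 and Tnni2 −0.50 and −0.24. The 2 positive genes were the fast myosins Myh1 at 0.54 and Myh2 at 0.61, both with overlapping groups. Another fast myosin, Myh4, gave −0.65 with all radiotherapy values below all control values. These myosins were named after their values were seen. Of 10 slow fibre genes 0 passed limma (1 higher at an unadjusted p under 0.05), 8 were positive and the median was 0.31, with the groups apart in 1, Myh7b, a myosin heavy chain at 1.38 ± 0.926 TPM in control and 2.88 ± 0.470 TPM in radiotherapy. The slow myosin Myh7 gave 0.66, the slow troponin Tnnt1 0.60, the slow light chain Myl2 0.24 and the slow binding protein Mybpc1 −0.05, each with overlapping groups. Tnnt1 and Myl2 were highest in control 1, at 462 and 760 TPM, and lowest in control 3, at 119 and 253 TPM. The part of fibre type in the values of the pump and buffer genes was not tested.

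Genes that varied most like the pumps were sought by the root mean square difference, over the 6 libraries, of log2(TPM + 1) centred on each gene's mean, among 4385 named genes with a mean of at least 10 TPM. Nearest to Atp2a1 were Ccny, a cyclin, at 0.048, Smyd1, a muscle methyltransferase, at 0.052, St3gal3, a sialyltransferase, at 0.067, and Sucla2, a subunit of succinyl-CoA synthetase, at 0.072. Among the calcium store genes Srl was closest to Atp2a1, at 0.16, and Sln farthest, at 1.74. Nearest to Atp2a2 were Rnase4 at 0.053, Tspan4 at 0.095, Gng11 at 0.13 and Arl6ip1 at 0.14. With 6 libraries and this many candidates, close matches describe these libraries only.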

How the data were processed

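Gene expression was measured by RNA sequencing (TruSeq libraries, per the labels' protocols) in 6 muscle samples, 3 per group. The authors deposited TPM values in 1 table with 1 column per sample. HISAT2, StringTie and RSEM with build mm9 are named, per the submitters' processing notes, with versions, roles, annotation and strand setting not given in the sources used here. TPM removes depth, and counts were not used here, so no count test was run. Values were transformed to log2(TPM + 1), and the 11375 genes reaching 1 TPM in 3 or more libraries were tested with limma 3.58.1 in R 4.3.3 (mean-variance trend, group as the only term, two-sided), with Benjamini-Hochberg adjustment over all of them at 0.05. The test was also run on simulated data with known changes. Noise there was drawn independently for each gene, so shifts shared across a library were not covered. Ratios of genes were compared by exact permutation tests. Members and gene lists were chosen with earlier results of these data known. The named genes were the 10 members, from each of 4 lists the 3 of highest mean TPM and the 2 of smallest p, and the 4 most like Atp2a1 and Atp2a2. Myh1, Myh2 and Myh4 were added after their values were seen. Of the list genes 2 were not matched by symbol. Alternatives were another pseudocount, 2 other filters, 3 other scalings, no trend, the replicate number as a block and each sample left out. Scaling to 6 fibre genes, mostly to Acta1 and Ckm, and leaving out radiotherapy 2 with control 3 were added after seeing the data. At most 4.16% of values above 0 were equal between any libraries. Figures used matplotlib 3.10.9 in Python 3.11.15.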

Additional observations from a re-analysis of the deposited data

How the results depend on the processing

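None of the 10 genes passed limma under any of 16 alternatives; their adjusted p ran from 0.219 to 1.00. Casq1 and Pvalb were negative under all of them, but at −0.06 and −0.15 when scaled to the fibre genes, a setting that also took Atp2a2 to 0.71, Casq2 to 0.98 and Pln to 0.61. The median of all genes was then 0.49. Against that median Casq1 was at −0.55 and Pvalb at −0.64, while Atp2a2 was at 0.22, Casq2 at 0.49 and Pln at 0.12. Sln was positive under all 16 alternatives, but its groups were apart, so those that keep the TPM scaling could not change its sign. The number of genes past the threshold, 0, was between 0 and 1 when a single sample was left out (Gm55635 without control 1, Gm24497 without radiotherapy 1) and 1 without radiotherapy 2 and control 3 together (Gm26447).

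Several values changed sign, and the cause was not tested. Not all were near 0. Atp2a1, Srl and Mrln, at −0.69, −0.68 and −0.42, changed sign only when scaled to the fibre genes. With a sample left out Atp2a2 ran from −0.33 to 0.24 and Pln from −0.039 to 0.23, while Casq2 ran from 0.057 to 0.53, Mrln from −0.66 to −0.18, and Casq1 and Pvalb from −1.19 to −0.55 and −1.19 to −0.53. Atp2a2 went to −0.33 without control 3, −0.11 without radiotherapy 1, −0.10 without radiotherapy 3 and −0.11 without radiotherapy 2 and control 3 together. Under that last setting Casq2 was −0.0089, Hrc 0.0084 and Pln −0.16. Pln was −0.021 without control 3 and −0.039 without radiotherapy 2. Hrc was 0.0089 with median-of-ratios scaling, 0.034 with quantile normalization, 0.16 with mitochondrial and Gm-named genes removed and 0.64 when scaled to the fibre genes. That last scaling gave Atp2a1 0.036, Mrln 0.31 and Srl 0.050. It moved the median of all genes to 0.49, against which Atp2a1 was at −0.45, Mrln at −0.17 and Srl at −0.44. With a sample left out, the difference in the Atp2a1 share ran from −0.311 to −0.0914 percentage points, in the Casq1 share from −2.83 to −1.34 percentage points, and in the peptides per 1000 TPM of the pumps from 15.5 to 38.1. The difference in Pvalb per Atp2a1, −0.21, was between −0.483 and 0.0569 with a sample left out (0.057 without control 1). That in Casq1 per 1000 TPM of Atp2a1, −8.56, was between −28.9 and 12.6 (12.6 without control 1, 4.18 without radiotherapy 3).

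The labels give both groups the same replicate numbers but no pairing, and same-numbered samples did not deviate together (correlations across genes −0.059, 0.024 and −0.11). With the replicate block 0 genes passed and no member's sign changed. Pln was not tested with the filter of 5 TPM. Depth is unknown, so detection limits could not be given.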

Other observations

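Tmem38b, a second counterion channel of the store, chosen here after its values were seen, measured 38.4, 38.2 and 45.1 TPM in control and 36.3, 41.4 and 98.6 TPM in radiotherapy (replicates 1 to 3). The groups overlapped, and the fitted difference, 0.38 on the log2 scale (SE 0.36; adjusted p = 0.977, limma), rests on radiotherapy 3, since the other radiotherapy values lay within or below the control range. Strit1, the peptide that displaces inhibitory peptides from the pump, also chosen after its values were seen, had overlapping groups, from 75.5 to 90.3 TPM in control and from 59.4 to 112 TPM in radiotherapy (log2 fold change 0.05).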
